A study of Mus musculus with 6 samples.

Results

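The CC chemokine cluster of mouse chromosome 11 was followed here through 10 of its genes, *Ccl2*, *Ccl3*, *Ccl4*, *Ccl5*, *Ccl6*, *Ccl7*, *Ccl8*, *Ccl9*, *Ccl11* and *Ccl12*. Members were chosen by gene symbol alone, as every probe set whose single annotated symbol is one of these names. This gave 53 of 58919 tested probe sets, in 10 of 5017 measured genes, with 3 to 7 probe sets per gene. A gene counts as measured if it is the single annotated symbol of a tested probe set in the deposited table of 65535 probe sets. Shares and ranks over all genes cover these 5017 and not the whole genome, and many genes of the lists below are not among them. Signals came from total RNA of mouse brain on a 1-colour Affymetrix whole-transcript array, 6 arrays in all. The 3 control arrays are from APPPS1-FVB brain. The 3 knockout arrays are from APPPS1-FVBxABCC1 brain, and are called knockouts as in the sample titles. Both groups thus carry the APPPS1 transgenes, driven in neurons by a *Thy1* promoter, which give amyloid plaques, and no plaque-free brain was included. By their label the knockouts also carry the *Abcc1* knockout, a transporter gene whose product exports glutathione conjugates and cysteinyl leukotrienes. Age, sex and batch are not given in the sources used here. The labels do not state whether each array is its own animal, and p-values therefore cover the spread between these 6 samples, which may be technical.

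CC chemokines are small secreted proteins with a pair of adjacent cysteines near the start of the mature chain. They bind G protein-coupled receptors on leukocytes and direct their migration. In brain with amyloid plaques, microglia around the deposits are a known source of several of them, *Ccl3*, *Ccl4* and *Ccl6* among these. In the RefSeq gene table the members form 2 groups on chromosome 11, with 28 measured genes between *Ccl8* and *Ccl5*. The first group holds the monocyte chemoattractants *Ccl2*, *Ccl7*, *Ccl8* and *Ccl12* and the eosinophil attractant *Ccl11*. The second holds *Ccl5*, *Ccl9*, *Ccl6*, *Ccl3* and *Ccl4*, the macrophage inflammatory proteins and their relatives.

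The promoters of *Ccl3*, *Ccl6* and *Ccl9* are shown because the results below turn on these 3 genes. They come from RefSeq on build GRCm38.p6, where 5 of the 10 members had an entry. Each run is the 250 bases before the annotated start, 5′ to 3′ on the strand of the gene. Capitals mark matches on either strand. The TATA box core was searched as TATAA. The core bound by PU.1, an ETS factor of myeloid cells, was searched as AGGAAG. AP-1 was searched as TGANTCA, C/EBP as TTGCNNAA, STAT as TTCNNNGAA, and NF-kappaB by its named motif. The windows are chr11:83649379-83649628 for *Ccl3*, chr11:83593088-83593337 for *Ccl6* and chr11:83578637-83578886 for *Ccl9*, all on the minus strand.
Ccl3: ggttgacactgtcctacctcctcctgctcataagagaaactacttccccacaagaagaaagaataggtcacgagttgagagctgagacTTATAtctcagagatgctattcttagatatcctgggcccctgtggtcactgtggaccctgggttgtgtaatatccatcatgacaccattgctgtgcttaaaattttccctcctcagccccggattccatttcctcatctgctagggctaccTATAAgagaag
Ccl6: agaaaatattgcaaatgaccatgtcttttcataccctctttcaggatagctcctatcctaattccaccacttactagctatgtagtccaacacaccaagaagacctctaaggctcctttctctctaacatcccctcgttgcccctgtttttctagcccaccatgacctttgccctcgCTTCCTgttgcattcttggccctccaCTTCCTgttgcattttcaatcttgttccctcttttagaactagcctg
Ccl9: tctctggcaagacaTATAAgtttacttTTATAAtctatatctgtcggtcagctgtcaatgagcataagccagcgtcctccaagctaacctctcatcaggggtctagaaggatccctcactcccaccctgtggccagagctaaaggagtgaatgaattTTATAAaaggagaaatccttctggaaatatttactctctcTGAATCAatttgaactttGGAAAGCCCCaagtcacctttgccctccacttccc
The *Ccl6* window held 2 matches to AGGAAG, read as CTTCCT, which begin 73 and 47 bases before the start. The *Ccl9* window held 1 AP-1 match, 53 bases before the start, and 1 NF-kappaB match, 35 bases before it, besides the TATA core at 3 places, where both strands overlap at 2 of them. In the *Ccl3* window only the TATA core matched, 11 bases before the start on the strand of the gene and 162 bases before it on the other. Among the windows not shown, that of *Ccl12* held 3 matches to the PU.1 core and that of *Ccl8* held 1. The longest run shared by the *Ccl6* and *Ccl9* windows had 13 bases, GCCCTCCACTTCC. Between the other pairs of the 5 windows the longest shared runs had 7 to 9 bases. Of 32851 windows of 250 bases, 22.8% held the TATA core, 29.5% the PU.1 core and 6.75% the AP-1 letters. The C/EBP letters were in 9.56%, the STAT letters in 7.02% and the NF-kappaB motif in 7.25%. Matches of letters are descriptions and not sites shown to be used.

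The 6 arrays had medians of 7.04 to 7.09 (log2). The targeted gene *Abcc1* has no entry in the probe annotation used here, and the human transgenes were not analysed. Neither genotype was therefore checked against its RNA. One library stood apart for these genes. On knockout 2, 10 of the 53 member probe sets lay at least 1 log2 unit below every other array, against 99 of all 58919 (0.168%). The other arrays had between 31 and 72 such probe sets over the whole table. Knockout 2 was the lowest array at 25 of the 53 (47.2%), against 15.8% of all probe sets. Each member is therefore described on all arrays and again without knockout 2, which leaves 2 knockout arrays.

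The first question was which chemokines stand above the dim end of the array. The limit used was, on each array, the 95th percentile of 184 probe sets of olfactory receptor genes, a family nearly silent in brain, and it lay between 4.95 and 5.11 (log2). At its brightest probe set, 8 of 10 members exceeded this limit on all 6 arrays, all but *Ccl8* and *Ccl12*. Of all genes 85.0% did so, which makes the brightest probe set a lenient measure. Counted over all probe sets, 20 of 53 member probe sets were above the limit on all 6 arrays (37.7%), against 70.9% of those tested. Most probe sets of a gene exceeded the limit on all 3 controls in 4 members, *Ccl3*, *Ccl5*, *Ccl6* and *Ccl9*, and in 66.9% of all genes. All 4 belong to the second group of the cluster.

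*Ccl6* was above the limit on the controls at 6 of 6 probe sets and *Ccl3* at 5 of 6. *Ccl5* and *Ccl9* followed with 4 of 6 and 4 of 7. *Ccl2* had 2 of 6, and *Ccl4*, *Ccl7* and *Ccl11* had 2 of 5 each, so for these genes most probe sets gave no signal above the dim limit. *Ccl8* had 0 of 3 and *Ccl12* 0 of 4. Near the limit, probe set 10389210 of *Ccl5* ran from 5.12 to 5.42 and counted as above, while 10379522 of *Ccl7* ran from 4.47 to 4.87 and did not. Probe sequences were not used here, so cross-hybridisation between related chemokines was not tested.

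**Figure D1:**
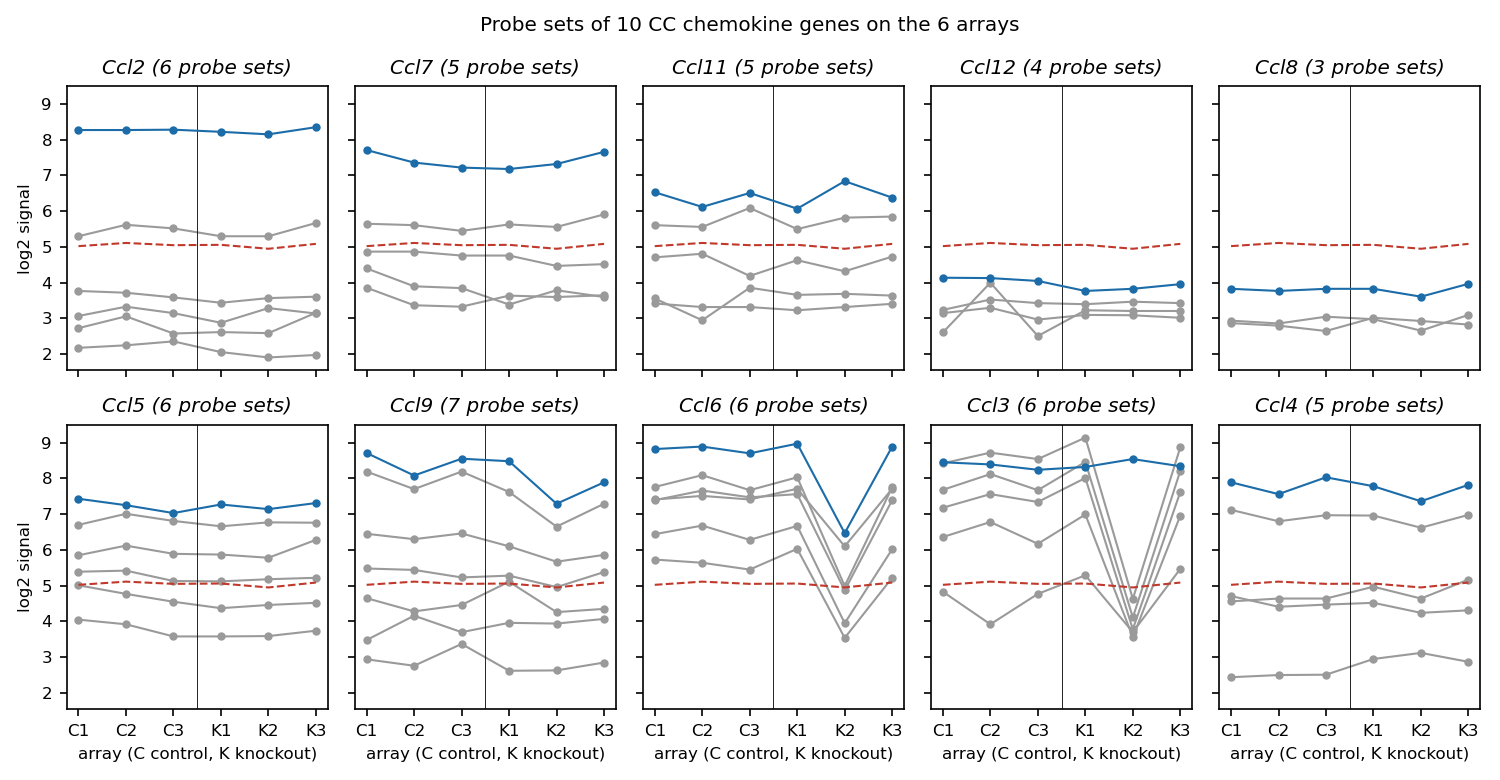
Log2 signal of every member probe set (lines; the brightest of each gene in blue) on control arrays C1 to C3 and knockout arrays K1 to K3, with the dim limit dashed in red. All 6 probe sets of *Ccl6* and 5 of 6 of *Ccl3* are lowest on knockout 2, while *Ccl8* and *Ccl12* lie under the limit on all arrays.

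The knockout difference was fitted with limma over the whole table, and no member passed. Of 58919 probe sets 3 were called at an adjusted p below 0.05 (0.00509%), and 0 of them were members. By raw p below 0.05 there were 7 member probe sets (13.2%), against 7.69% of all. Apart from 10389216 and 10389218 of *Ccl9*, these were under the dim limit on all arrays. Without knockout 2 there were 11 at raw p below 0.05 (20.8%), against 7.28% of all. That array was left out because members were low on it, so these shares cannot be compared fairly. Among the 11 are 10389232 to 10389236, which all read *Ccl3*. Also among them are 10379523 of *Ccl7* and 10379726 of *Ccl4*, under the dim limit on all arrays. Limma adjusted p of the 53 member probe sets lay between 0.522 and 1. Knockout values were lower at 37 of the 53, higher at 15 and equal at 1, with a median log2 difference of -0.11 against 0.01 for all tested probe sets. Without knockout 2, 25 were lower and 28 higher, and the median was 0.0067 against 0.0083, with 4 probe sets called over the table (0.00679%) and 0 members among them. The 3 and 4 calls were all higher in knockouts. With 3 arrays a group, 0.1 is the smallest two-sided p of an exact permutation test.

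*Ccl3*, which encodes macrophage inflammatory protein 1-alpha, a ligand of Ccr1, showed the widest spread. At probe set 10389235 it read 8.42, 8.72 and 8.54 on controls 1 to 3, and 9.14, 4.63 and 8.87 on knockouts 1 to 3. Knockouts 1 and 3 lay above all controls, and knockout 2 lay 3.79 log2 units below the lowest other array and under the dim limit. Controls averaged 8.56 ± 0.15 (SD, n = 3), knockouts 7.55 ± 2.53 (SD, n = 3). Knockout minus control was -1.01 on the log2 scale (SE 1.18, limma adjusted p = 0.853). Without knockout 2 the difference turned to 0.45 (SE 0.14, limma adjusted p = 0.661). Probe sets 10389233, 10389234 and 10389236 had gaps of 2.61, 3.56 and 3.40 log2 units below the next lowest array. All 4 of these probe sets were above the limit on the other 5 arrays and under it on knockout 2. The sixth, 10389232, was above the dim limit on knockouts 1 and 3 only, at 5.29 and 5.47. It read 3.92 to 4.83 on the controls and 3.70 on knockout 2.

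One probe set of *Ccl3* did not follow the others. Probe set 10389237 read 8.45, 8.39 and 8.24 on the controls and 8.32, 8.54 and 8.34 on the knockouts, with overlapping groups and knockout 2 the highest. It has the highest mean of the gene over 6 arrays, so the rule of the brightest probe set reads *Ccl3* there, where knockout minus control was 0.04 (log2, SE 0.10, limma adjusted p = 0.940). Averaging its 6 probe sets gave -0.51 (SE 0.70, limma adjusted p = 0.781) with knockout 2 and 0.47 (SE 0.07, limma adjusted p = 0.238) without it. Without knockout 2, the 5 probe sets other than 10389237 were all higher in the knockouts, by 0.45 to 0.87 on the log2 scale.

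*Ccl6*, a chemokine of rodent myeloid cells that acts through Ccr1, was lowest on knockout 2 at 6 of 6 probe sets. Its brightest, 10389226, read 8.82, 8.89 and 8.70 on the controls and 8.97, 6.47 and 8.89 on the knockouts. Knockouts 1 and 3 lay among or just above the controls, and knockout 2 lay 2.23 log2 units below the lowest of the other arrays. The log2 difference was -0.69 (SE 0.66, limma adjusted p = 0.818), and 0.13 (SE 0.10, limma adjusted p = 0.791) without knockout 2. At the other 5 probe sets the gap of knockout 2 to the next lowest array ran from 1.31 to 2.68 log2 units, and 3 of the 6 fell under the dim limit there. Averaged over its probe sets, *Ccl6* stood at 7.28 ± 0.13 on control arrays (SD, n = 3) and at 6.55 ± 1.36 on knockout arrays (SD, n = 3).

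*Ccl9*, a macrophage inflammatory protein of rodents and also a ligand of Ccr1, was lower in all knockouts at 2 probe sets. Probe set 10389216 read 8.19, 7.70 and 8.19 on the controls and 7.62, 6.65 and 7.29 on the knockouts, with no overlap and knockout 2 lowest. The log2 difference was -0.84 (SE 0.27, limma adjusted p = 0.598), and -0.57 (SE 0.20, limma adjusted p = 0.671) without knockout 2. At 10389218 the controls read 6.45, 6.30 and 6.46 and the knockouts 6.10, 5.67 and 5.86, again without overlap. There the log2 difference was -0.53 (SE 0.13, limma adjusted p = 0.555) and -0.42 (SE 0.12) without knockout 2. The brightest probe set, 10389217, overlapped, with 8.71, 8.08 and 8.55 on the controls and 8.48, 7.29 and 7.89 on the knockouts. As an average of 7 probe sets *Ccl9* differed by -0.30 (SE 0.13, limma adjusted p = 0.349), and by -0.16 (SE 0.09) without knockout 2. *Ccl9* was thus lower with and without that array at these 2 probe sets, and at neither did it pass the threshold.

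*Ccl4*, macrophage inflammatory protein 1-beta and the neighbour of *Ccl3*, did not show the deep gap. Its brightest probe set, 10379722, read 7.89, 7.56 and 8.03 on the controls and 7.78, 7.36 and 7.82 on the knockouts. Knockout 2 was the lowest array, by 0.20 log2 units, and the groups overlapped (log2 difference -0.17, SE 0.18, limma adjusted p = 0.831). Without knockout 2 the difference was -0.03. The sign turned with the summary of the gene, to 0.07 for the mean of its 5 probe sets (0.15 without knockout 2) and 0.26 for their median (0.41 without it). Probe set 10379723 had a gap of 0.18. The smallest raw p of all members, 0.0016, was at probe set 10379726 of *Ccl4*, with 2.44, 2.50 and 2.51 on the controls and 2.95, 3.12 and 2.87 on the knockouts. All 6 of these values are under the dim limit, and the limma adjusted p was 0.522. Without knockout 2 the difference there was 0.43, against 0.50 with it.

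*Ccl5*, known as RANTES, is a chemokine made by T cells and other leukocytes. Probe set 10389212 read 7.43, 7.25 and 7.03 on the controls and 7.27, 7.14 and 7.31 on the knockouts, overlapping groups with a log2 difference of 0.0033 (SE 0.12), and 0.05 without knockout 2. Averaged over 6 probe sets, knockout minus control was -0.13 (SE 0.08, limma adjusted p = 0.518), and -0.10 without knockout 2. Knockout 2 was the lowest array at 1 of these 6, by 0.07 log2 units.

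Of the monocyte chemoattractants, *Ccl2*, the main ligand of Ccr2, was bright at a single probe set. Probe set 10379512 read 8.27, 8.27 and 8.28 on the controls and 8.22, 8.15 and 8.35 on the knockouts, which overlap (log2 difference -0.03, SE 0.08, limma adjusted p = 0.939). It was 0.01 without knockout 2. The other 5 probe sets had means of 5.45 or less over the 6 arrays. *Ccl7*, a ligand of Ccr1, Ccr2 and Ccr3, read 7.71, 7.36 and 7.22 on the controls and 7.18, 7.32 and 7.66 on the knockouts at 10379519. Its groups overlapped too (log2 difference -0.04, SE 0.18, and -0.01 without knockout 2). Knockout 2 was the lowest array for neither *Ccl7* at this probe set nor *Ccl11*, the Ccr3 ligand eotaxin. *Ccl11* read 6.53, 6.12 and 6.51 on the controls and 6.07, 6.84 and 6.38 on the knockouts at 10379526, where knockout 2 was the highest. The difference of 0.04 (log2, SE 0.22) turned to -0.16 without that array.

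*Ccl12* and *Ccl8*, further monocyte chemoattractants, stayed under the dim limit at all of their probe sets on all arrays. At 10379531 *Ccl12* read 4.14, 4.13 and 4.05 on the controls and 3.77, 3.83 and 3.96 on the knockouts, without overlap (log2 difference -0.25, SE 0.09, limma adjusted p = 0.602). It was -0.24 without knockout 2. *Ccl8* read 3.83, 3.77 and 3.83 on the controls and 3.83, 3.61 and 3.97 on the knockouts at 10379538, a difference of -0.0067 that was 0.09 without knockout 2. Over all members, all knockouts lay below all controls at 6 of 53 probe sets (11.3%), against 5.52% of the table. They lay above at 1 of 53, against 7.94%. Of the 6 lower ones, 4 were under the dim limit on all arrays and the other 2 are those of *Ccl9*. As gene means, 0 of 10 members had all knockouts below all controls, against 8.85% of genes.

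**Figure D2:**
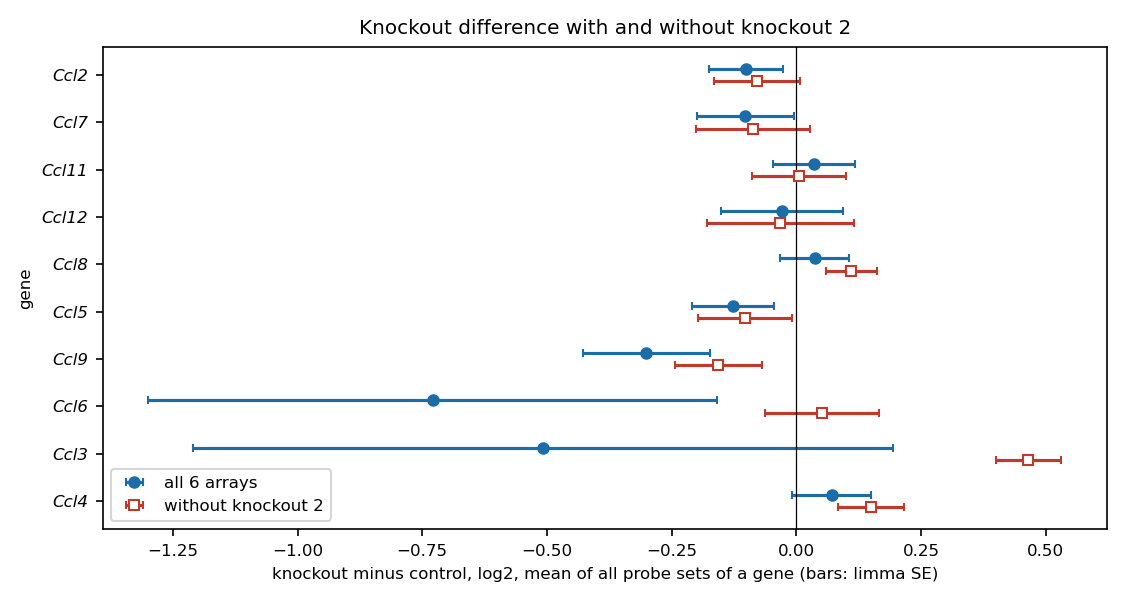
Knockout minus control on the log2 scale for the mean of all probe sets of each member (points; bars are limma standard errors), on all 6 arrays and without knockout 2. For *Ccl6* and *Ccl3* the sign turns when knockout 2 is left out, from -0.73 to 0.05 and from -0.51 to 0.47.

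On knockout 2, *Ccl3* and *Ccl6* had the 2 widest gaps below all other arrays among 5017 genes, by the mean of all probe sets. The gaps were 2.40 and 2.18 log2 units, and that of *Ccl9*, 0.33, ranked 35. As means of all probe sets, *Ccl3* read 7.15, 7.25 and 7.12 on the controls and 7.70, 4.72 and 7.58 on the knockouts. *Ccl6* read 7.26, 7.41 and 7.16 on the controls. Next in rank, chosen after their values were seen, came *Ctse*, which encodes cathepsin E, at 1.11, *Adat3*, measured by 1 probe set, at 1.08, and the lysozyme gene *Lyz2* at 1.02. The transporter gene *Slc11a1* of phagocyte lysosomes followed at 0.87, the lysosomal gene *Cd68* at 0.71, *Wfdc17* and *Catspere2*, a gene named for a sperm ion channel, at 0.70 each, and the integrin gene *Itgb2* at 0.70. Genes beside the members gave mixed values. *Wfdc17* is also the next measured gene after *Ccl4*, and *5530401A14Rik*, the last before *Ccl2*, was not lowest on knockout 2. *E230016K23Rik*, between *Ccl9* and *Ccl6*, had a gap of 0.11. Of 28 measured genes in the span that are not chemokines, 6 were lowest on knockout 2, and this gap was the largest.

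**Figure D3:**
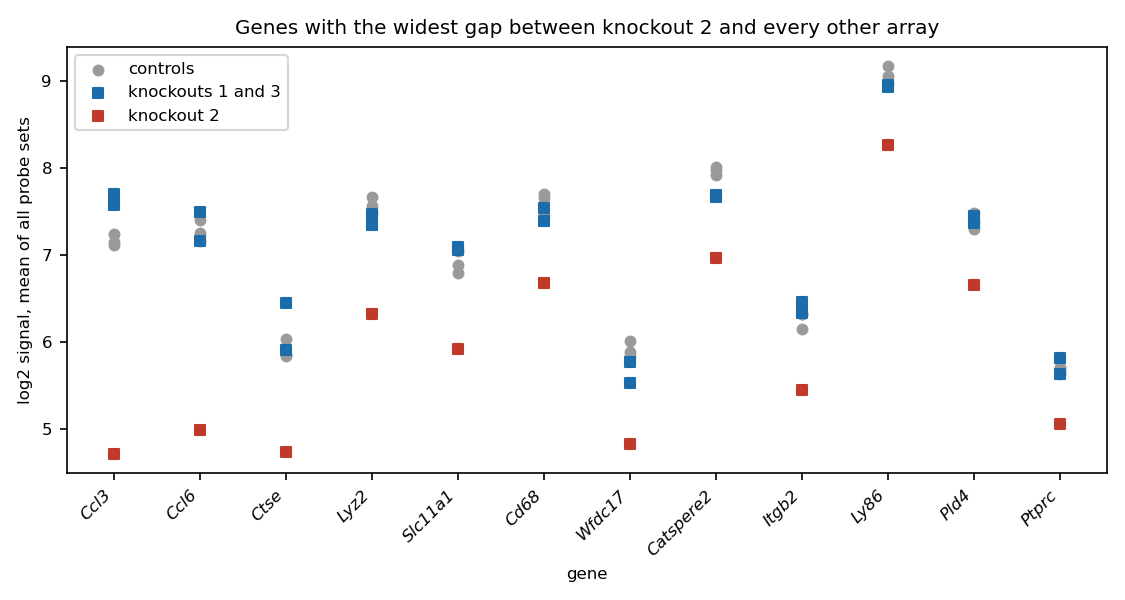
Mean log2 signal of all probe sets on each array for the 12 genes, of those with at least 3 probe sets, in which knockout 2 lay farthest below every other array. *Ccl3* and *Ccl6* have gaps of 2.40 and 2.18, against 1.11 for *Ctse*, the next in order.

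Some cell type markers were also low on knockout 2. Of 17 genes listed for microglia and macrophages 6 were measured, *Cd68*, *Fcer1g*, *Fcgr2b*, *Fcgr3*, *Ptprc* and *Lilrb4a*, and by the mean of its probe sets each of the 6 was lowest on knockout 2. The gap ran from 0.0082 log2 units for *Fcgr2b* to 0.71 for *Cd68*, and at its brightest probe set *Fcgr2b* was not lowest there (7.18, against 7.15 on control 3). Their mean log2 signal was 6.08 to 6.13 on the controls, 6.25 on knockout 1, 5.56 on knockout 2 and 6.13 on knockout 3. At brightest probe sets, *Lilrb4a* fell under the dim limit on knockout 2, at 4.75, and the other 5 stayed above it on all arrays. The 3 measured genes for monocytes and neutrophils, *Lyz2*, *Mpo* and *Prtn3*, had a mean of 5.67 to 5.87 on the controls. Their mean was 5.64 and 5.61 on knockouts 1 and 3, and 5.24 on knockout 2. *Lyz2* was lowest there, *Prtn3* shared its lowest value, 4.99, with knockout 3, and *Mpo* was not lowest. The astrocyte list (3 of 8 measured) was at 9.67 to 9.99 on the controls and 9.69, 9.40 and 9.56 on knockouts 1 to 3. *Gfap* lay 0.57 below the next lowest array on knockout 2, while *S100b* and *Gja1* were lowest on knockout 3. The border macrophage list, with 3 of 10 measured, was at 4.97 to 5.18 on the controls and 5.13 on knockout 2. Lists for T and NK cells (7 of 13 measured), B cells (5 of 8), endothelium (4 of 8) and meningeal fibroblasts (6 of 8) stood at 4.50, 4.49, 5.14 and 6.52 on knockout 2. On the controls they ran from 4.52 to 4.63, 4.58 to 4.65, 5.12 to 5.17 and 6.53 to 6.83. In the same order, they were at 4.54, 4.50, 5.07 and 6.47 on knockout 1. On knockout 3 they were at 4.65, 4.57, 5.18 and 6.56. The mast cell and eosinophil list (2 of 7) was at 3.66 on knockout 2 and 3.64 to 3.79 on the controls. The red cell list (2 of 6) was at 4.63 to 4.68 on the 3 knockouts and 4.86 to 4.91 on the controls. Its 2 genes, *Slc4a1* and *Hba-x*, differed by -0.36 and -0.12 as gene means, but by 0.24 and -0.07 at brightest probe sets. No marker passed the limma threshold. The neuron list, with 4 of 8 measured, was at 10.04 to 10.10 on the controls and 10.14 on knockout 2. In whole brain, fewer cells of a type and less RNA per cell cannot be told apart, and the part of these cells in the chemokine values was not tested.

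**Figure D4:**
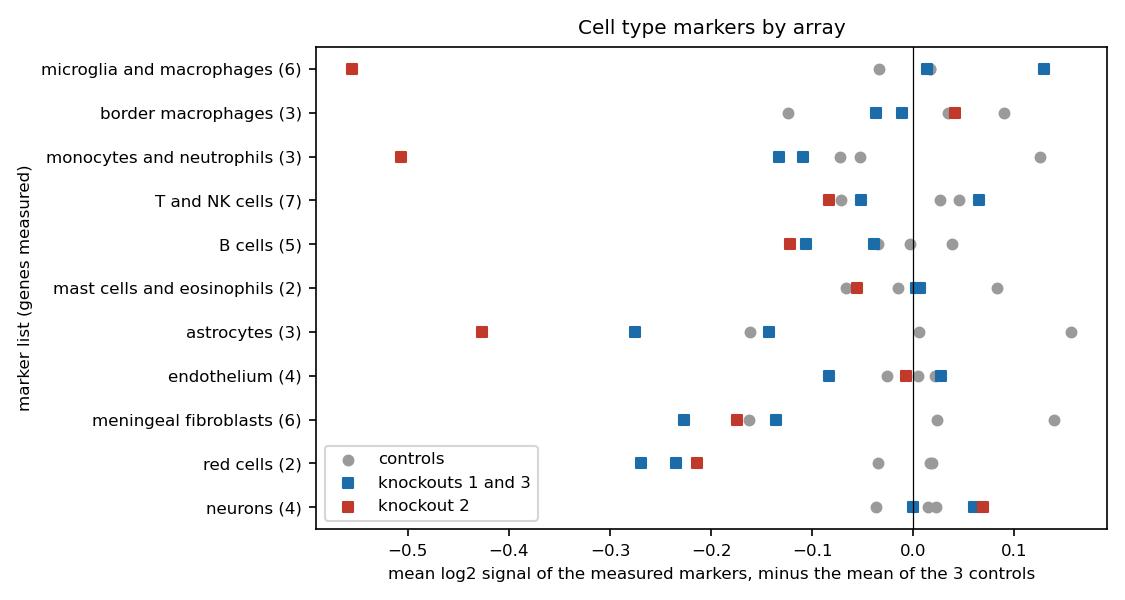
Mean log2 signal of the measured markers of each cell type on each array, minus the mean of the 3 controls; the number of genes measured is in brackets. Before the subtraction, knockout 2 was at 5.56 for microglia and macrophages, below the controls at 6.08 to 6.13. For neurons it was at 10.14, beside controls at 10.04 to 10.10.

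The other lists of the pathway held no gene past the threshold. Of the receptors of these chemokines only *Ackr1* was measured, 1 of 9 genes, a decoy receptor that binds several CC chemokines. It read 8.34, 8.21 and 8.39 on the controls and 8.67, 9.04 and 8.76 on the knockouts, without overlap and highest on knockout 2. The log2 difference was 0.51 (SE 0.12, limma adjusted p = 0.553), and 0.40 without knockout 2. Over the mean of its 3 probe sets it was 0.21, and 0.10 without knockout 2, and there the groups overlapped, with 4.76 on knockout 3 and 4.85 on control 1. Of 16 other chemokine receptors 6 were measured, 5 lower and 1 higher at the brightest probe set, with 0 passing. Of all 5017 genes, 2842 were lower and 2131 higher at their brightest probe set. *Cxcr4*, the receptor of Cxcl12, differed by -0.36 (-0.24 as the gene mean) and *Ackr3*, a decoy receptor of the same ligand, by -0.41 at its brightest probe set but 0.0067 over the mean of its probe sets. At brightest probe sets *Cxcr1* differed by -0.19, *Cxcr2*, under the dim limit on all arrays, by -0.08, *Ccr7* by -0.0067 and *Ccr10* by 0.03. Their gene means differed by -0.03, -0.06, -0.11 and -0.08.

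Of 29 other chemokines 5 were measured, and none had the gap of *Ccl3* or *Ccl6*. *Ccl1*, which lies in the same cluster, differed by 0.02 at its brightest probe set, *Ccl20* by -0.11, *Cxcl14* by -0.04, *Cxcl16* by 0 and *Xcl1* by 0.16. Of 38 genes of chemokine receptor signalling 15 were measured, with 0 passing. At brightest probe sets 10 were lower and 5 higher, and as gene means 8 were lower and 7 higher. Those with the smallest raw p were *Prkca*, a protein kinase C gene, at 0.20 (0.19 as the gene mean), and *Rgs1* and *Rgs18*, which dampen G protein signals, at -0.37 and 0.40. *Rgs1* was above the dim limit on 0 arrays and *Rgs18* on 1, and their gene means differed by -0.22 and 0.005. Of 37 genes of inflammatory induction 10 were measured, 8 lower and 2 higher both at brightest probe sets and as gene means, with 0 passing. *Ikbke*, a kinase of the NF-kappaB and interferon pathways, differed by -0.35, *Rel*, an NF-kappaB subunit, by 0.32, and *Nfkbia*, its inhibitor, by -0.23. The gene means of these 3 differed by -0.05, 0.09 and -0.19.

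Genes of most similar course were named by Pearson's r over the 6 arrays between brightest probe sets, among 4263 genes above the dim limit. For *Ccl6* these were *9030612E09Rik*, *Dnmt3aos* and *Gm5259*, with r of 0.997, 0.996 and 0.992. Over the 6 arrays they ranged over only 0.21, 0.03 and 0.21 log2 units, so their resemblance is one of shape and not of size. For *Ccl4* they were *Npl*, *Rab36* and the Fc receptor gene *Fcgr3*, with r of 0.990, 0.968 and 0.968. For *Ccl3* they were *Dlx4*, *BC051665* and *Zfp62*. These were compared with probe set 10389237, which was highest on knockout 2, and not with the *Ccl3* probe sets that were lowest there. For *Ccl9* they were *Rps29*, *Dtnbp1* and *Prr7*, and for *Ccl5* *Amh*, *Psmc3ip* and *Mxd3*. For *Ccl2* they were *Trim7*, *Med24* and *Spata17*, for *Ccl7* *Top2a*, *Rgs5* and *Zpbp*, and for *Ccl11* *Atp6v1g3*, *Cntnap5b* and *Catsper3*. Between 21 and 79 genes exceeded an r of 0.9 for each of the 8 members tried, so likeness over 6 arrays separates few genes.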

How the data were processed

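The deposited table holds log2 signals with 2 decimals for 65535 probe sets on 6 arrays. The log2 scale was read from the deposited values, 1.69 to 14.41. MAS5 is named without a version per the submitters' processing notes, and the scaling between arrays and the genome build are not given in the sources used here. Probe sets with IDs below the first named one (6616) were taken as control features and left out. Of the 58919 others, 53644 had 1 symbol, 877 several and 4398 none in the platform's annotation. Symbols were brought up to date with the RefSeq gene table of GRCm38.p6, where 4321 were current, 698 were updated and 13 were kept. That table served for names and gene order only.

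Signals were used without further normalization, since array medians differed by 0.05, under the limit of 0.1. Knockout minus control was fitted with limma 3.58.1 in R 4.3.3 (lmFit, eBayes, two-sided, Benjamini-Hochberg over all tested probe sets, threshold 0.05), and the fit was tested on simulated data. A gene was read at its brightest probe set and as the mean of its probe sets, the latter fitted per gene. The number of arrays limits the precision. Same-numbered arrays of the 2 groups did not deviate together (correlations 0.037, -0.070 and -0.100). Named genes are all members, all measured genes of the receptor and chemokine lists, the 3 smallest raw p of the other pathway lists, the neighbours of the cluster and the 3 genes most like a member. The members, lists and tests were chosen with earlier results of these data known. Alternatives covered normalization, dim probe sets, variance model, array weights, the replicate number, single arrays, gene summaries, the threshold and the dim limit.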

Additional observations from a re-analysis of the deposited data

How the results depend on the processing

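Over the whole table, 3 probe sets were called. Other fits called 6 (quantile normalization), 7 (median centring), 7 (weighted arrays), 7 (threshold 0.1), 19 (dimmest probe sets left out), 21 (trend and robust moderation), 0 (gene means) and 0 (replicate block). Leaving out 1 array gave 0 to 4. The cause was not tested, though fewer features were tested with the gene means and without dim probe sets. In each of these fits 0 members passed. The replicate number is shared by name only, and with it as a block the count went from 3 to 0. The 8 members above the dim limit became 2 when most probe sets of a gene had to exceed it on all 6 arrays and 4 when on the 3 controls, both chosen after seeing the data. The 20 member probe sets above it became 12 with the 75th percentile of the control features and 12 with the 33rd percentile of all probe sets.

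These differences, none of them past the threshold, changed sign against the brightest probe set on all arrays. With quantile normalization *Ccl8* was at 0.00056 and *Ccl5* at -0.016, with median centring *Ccl5* at -0.017, and with array weights *Ccl11* at -0.030, *Ccl8* at 0.0042 and *Ccl5* at -0.032. As gene means *Ccl8* was at 0.037, *Ccl5* at -0.13, *Ccl3* at -0.51 and *Ccl4* at 0.071. As gene medians, added after seeing the data, *Ccl11* was at -0.010, *Ccl8* at 0.067, *Ccl5* at -0.058, *Ccl3* at -0.92 and *Ccl4* at 0.26. Without knockout 2 the gene means were 0.11 (*Ccl8*), -0.10 (*Ccl5*), 0.051 (*Ccl6*) and 0.15 (*Ccl4*), and the gene medians 0.11, -0.011, 0.12 and 0.41, both added after seeing the data. So was *Ccl3* without its brightest probe set, at -1.01. Leaving out 1 array gave, at brightest probe sets, -0.088 to 0.012 for *Ccl2*, -0.18 to 0.097 for *Ccl7*, -0.16 to 0.22 for *Ccl11*, -0.09 to 0.09 for *Ccl8*, -0.10 to 0.10 for *Ccl5*, -1.12 to 0.13 for *Ccl6* and -0.03 to 0.085 for *Ccl3*.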

Other observations

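On knockout 2, the array on which *Ccl3* and *Ccl6* were lowest, the widest gaps above all other arrays were in the pituitary hormone genes *Gh* and *Prl*, by the mean of all probe sets. *Gh* read 4.94, 4.88 and 4.48 on the controls and 4.48, 5.71 and 4.45 on the knockouts. *Prl* read 6.65, 5.02 and 4.94 on the controls and 5.59, 7.28 and 4.81 on the knockouts, so control 1 was high as well. Their part in the chemokine values was not tested.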
